A study of Homo sapiens with 4 samples.

Results

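The Hedgehog pathway passes a secreted signal from the cell surface to the GLI transcription factors. Without ligand, the receptor PTCH1 holds the transmembrane protein SMO inactive, SUFU holds GLI proteins in the cytoplasm, and GLI2 and GLI3 are cut into repressors. With ligand, SMO is released and full-length GLI proteins switch on target genes, among them PTCH1 and GLI1, so that the levels of these 2 transcripts are widely read as a measure of pathway activity. In the prostate the pathway is known for its part in budding of the ducts, where the epithelium makes the ligand and the stroma answers.

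The genes described here are 9 control points of this pathway, PTCH1, SMO, SUFU, KIF7, STK36, DYRK1B, GLI1, GLI2 and GLI3, of 19774 genes measured. They were taken by name, with every probe set (a group of short probes for a transcript) whose platform annotation names one of them and no other gene. This gave 23 probe sets of 40914, and each was examined singly. Their RNA was measured in DU145, an established human prostate carcinoma line that grows without androgen, infected with lentivirus carrying an shRNA against DCUN1D1 (2 arrays, shDCUN1D1) or, as the control, an shRNA against GFP (2 arrays, shGFP). DCUN1D1 is a co-E3 ligase that helps attach NEDD8 to cullins, and the question is which transcripts differ once it is knocked down. By the records both groups were grown in DMEM with serum for 16 h before extraction, and they also name DMSO without saying what it was used for. The paper's methods instead describe RNA collected within days of infection and name no such step, and the sources do not settle which holds for these arrays. The records call the arrays of a group biological duplicates, and the methods name more than one shRNA against DCUN1D1 without saying which of them an array carried.

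The arrays were dim and unlike each other, which touches every value below. The array carries 23 nonspecific control probe sets, which differ in base composition and are meant to match no human transcript. The one whose probes have 20 G or C bases read 2.48 and 2.51 in the shDCUN1D1 arrays and 2.97 and 3.30 in the shGFP arrays. It serves here as the mark for signal above background. The control of 14 G or C bases read 1.33 to 1.73, and the base composition of the probes of each gene was not at hand. The mark is therefore a convention, and values under it are treated as not told apart from background. The share of probe sets above this mark was 18.7% and 14.5% in the shDCUN1D1 arrays, against 8.97% and 6.07% in the shGFP arrays. In shDCUN1D1 replicate 1, 1416 probe sets lay more than 2 log2 units above each other array, against 0 to 5 in the others. Of 5 epithelial markers, KRT8 alone was above the mark in every array on its brightest probe set. KRT18 read 7.62 in shDCUN1D1 replicate 1 and 1.69 in shDCUN1D1 replicate 2, against 1.68 and 1.63 in the shGFP arrays. The probes of these KRT8 and KRT18 probe sets may also bind other transcripts. A second KRT8 probe set read 2.001 and 1.59 in the shDCUN1D1 arrays, against 3.66 and 3.72 in the shGFP arrays. CDH1, KRT19 and EPCAM were above the mark in no array, as were the 3 leukocyte and the 3 endothelial markers. Of 3 luminal prostate markers, 0 were above it in every array. On its brightest probe set TMPRSS2 read 3.22 and 3.11 in the shDCUN1D1 arrays and 3.72 and 2.90 in the shGFP arrays, below the mark in shGFP replicate 2 alone. KLK3 was above it in shDCUN1D1 replicate 2 alone and KLK2 in no array. Summed over the brightest probe set of each gene, the 5 epithelial markers came to 16.4 and 10.8 in the shDCUN1D1 arrays and 10.9 and 12.5 in the shGFP arrays. Of 4 fibroblast markers COL1A1 was above the mark in all arrays on its brightest probe set, whose probes may bind other transcripts. A second COL1A1 probe set read 2.12 and 1.31 in the shDCUN1D1 arrays, against 3.09 and 4.03 in the shGFP arrays, lower past the fold bound by the rule given in the next paragraph, as was the second KRT8 probe set. What part these markers have in the differences reported was not tested. The fibroblast sums were 9.41 and 10.99 in the shDCUN1D1 arrays and 9.84 and 11.02 in the shGFP arrays. The targeted gene DCUN1D1 has 6 probe sets, none above the mark in any array. On the brightest it read 1.60 and 1.45 in the shDCUN1D1 arrays and 2.55 and 1.99 in the shGFP arrays, a log2 difference of −0.75 (standard error 0.26) that was not called by the rule used for the other genes. Of its 6 probe sets, 4 read lower and 2 higher on average, all at background level.

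Log2 fold changes are given as shDCUN1D1 minus shGFP and were tested with limma over all 40914 probe sets. A probe set is called past the fold bound when the lower end of the 90% interval of its fold change exceeds 1.2, a rule taken from the study's methods and computed here from limma's standard error. Over all probe sets, 974 were lower past the bound (2.38%) and 481 higher (1.18%). By the Benjamini–Hochberg adjusted p from limma, 0 probe sets passed 0.05 in either direction (0%), with 2146 lower and 939 higher at an unadjusted p under 0.05. A two-sided exact permutation test of 2 arrays against 2 has 0.333 as its smallest p.

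Of the 23 probe sets of the Hedgehog control genes, 3 were lower past the fold bound and 0 higher. Over all probe sets 2.38% were lower and 1.18% higher. They belong to PTCH1, SUFU and DYRK1B, and each is the brightest probe set of its gene. PTCH1 and SUFU both restrain the pathway, and DYRK1B is a kinase reported to act on GLI proteins. The transducer SMO and the factors GLI1, GLI2 and GLI3 had no probe set past the bound, nor had KIF7 and STK36. Among the 23, 14 had a negative and 9 a positive log2 fold change, with a median of −0.06, beside 51.7% negative and a median of −0.01 over all probe sets. Both shDCUN1D1 arrays lay below both shGFP arrays for 7 of the 23 (25% of all probe sets did so) and above them for 1 (17.9% of all). At an unadjusted p under 0.05 limma gave 4 lower and 0 higher, beside 2146 lower and 939 higher of all 40914 probe sets.

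Promoter windows from RefSeq (250 bases before to 50 after an annotated start, build GRCh38.p14) were at hand for 7 of the 9 genes, 13 windows in all, and those of GLI1 and GLI3 were not analysed here. The 250 bases before the start are shown for the 3 genes with a probe set past the bound, 5′ to 3′ on the gene's own strand. Capitals mark the GLI consensus TGGGTGGTC, the GC box GGGCGG and the CCAAT box, each on either strand (GACCACCCA, CCGCCC and ATTGG in reverse).
PTCH1, chr9:95509267-95509516, minus strand: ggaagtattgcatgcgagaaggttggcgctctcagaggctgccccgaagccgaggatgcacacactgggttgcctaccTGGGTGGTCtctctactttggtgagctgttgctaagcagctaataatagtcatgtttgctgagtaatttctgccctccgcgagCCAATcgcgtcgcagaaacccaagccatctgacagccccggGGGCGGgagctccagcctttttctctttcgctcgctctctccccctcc
SUFU, chr10:102503722-102503971, plus strand: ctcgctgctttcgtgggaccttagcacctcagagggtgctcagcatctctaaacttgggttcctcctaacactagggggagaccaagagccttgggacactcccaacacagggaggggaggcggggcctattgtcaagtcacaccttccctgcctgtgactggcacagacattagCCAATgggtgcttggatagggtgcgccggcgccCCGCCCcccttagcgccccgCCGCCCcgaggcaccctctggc
DYRK1B, chr19:39834163-39834412, minus strand: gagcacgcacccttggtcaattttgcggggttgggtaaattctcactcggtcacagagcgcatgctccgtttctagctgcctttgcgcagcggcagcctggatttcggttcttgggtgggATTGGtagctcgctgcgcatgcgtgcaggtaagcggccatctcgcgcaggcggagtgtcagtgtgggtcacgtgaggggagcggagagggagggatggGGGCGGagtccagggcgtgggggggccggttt

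The GLI consensus lies 172 to 164 bases before this PTCH1 start, one of 5 starts with a window for the gene, and this window was chosen for display because it holds the match. Among the 13 windows it is found in this one alone, and among all 35116 windows of that length in 83 (0.236%). A match with at most 1 mismatch is present in 2 further PTCH1 windows and in 1 STK36 window, and in 6.74% of all windows. The 3 promoters shown also share a GC box and a CCAAT box, a pair held by 14.4% of all windows and, of the other member windows, by 1 of GLI2. The other 4 PTCH1 windows do not hold the pair, so for PTCH1 it belongs to the window chosen. The marked motifs do not overlap in the sequences shown. The array does not tell which start a transcript used, and a match is a description of the letters alone.

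PTCH1, the receptor that binds the Hedgehog ligands, was the member with the largest difference. Probe set 238754_PM_at read 1.85 and 1.87 in the shDCUN1D1 arrays and 3.58 and 3.41 in the shGFP arrays, so that the groups lay far apart and each pair of replicates close together. The means were 1.86 ± 0.02 in shDCUN1D1 and 3.497 ± 0.124 in shGFP (SD, n = 2 each). The log2 fold change was −1.63 (standard error 0.30; limma adjusted p = 0.625), or 3.11-fold lower, with a lower 90% bound of 2.06. Both shGFP arrays were above their nonspecific mark and both shDCUN1D1 arrays below theirs, so the fold is taken against background. Leaving out 1 array at a time kept the value between −1.72 and −1.55, past the bound in each case.

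The other 4 PTCH1 probe sets did not pass the bound and were above the nonspecific mark in no array. Probe set 208522_PM_s_at read 1.85 and 1.88 in the shDCUN1D1 arrays, against 2.22 and 2.43 in the shGFP arrays, which differ by −0.46 (standard error 0.22). Its groups do not overlap either, and its 90% interval ran from −0.90 to −0.02. The other three lay between 1.12 and 1.78, with overlapping groups and log2 fold changes of −0.09, 0.02 and 0.18. Averaged over the 5, the gene differed by −0.40 and was not past the bound.

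SMO, the transmembrane protein that PTCH1 holds in check, has 1 probe set. It read 2.75 and 2.88 in the shDCUN1D1 arrays and 3.43 and 2.92 in the shGFP arrays. The lower shGFP value all but met the higher shDCUN1D1 value, and the difference rested on shGFP replicate 1. For SMO the log2 fold change was −0.35 (standard error 0.38, adjusted p = 0.734 from limma), with a 90% interval from −1.11 to 0.40. Without shGFP replicate 1 it was −0.10, and without shGFP replicate 2 it was −0.61. SMO was above the nonspecific mark in both shDCUN1D1 arrays and in shGFP replicate 1.

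SUFU, which binds GLI proteins and keeps them from the nucleus, was lower past the bound on 1 of its 4 probe sets. Probe set 222749_PM_at read 2.44 and 2.46 in the shDCUN1D1 arrays, against 3.39 and 3.80 in the shGFP arrays. Both shDCUN1D1 values lay just under their nonspecific mark and both shGFP values above theirs. The log2 fold change was −1.14 (standard error 0.37, adjusted p = 0.625 from limma), or 2.21-fold lower, with a lower 90% bound of 1.33. Without shDCUN1D1 replicate 1 it was −1.13 and without shGFP replicate 2 it was −0.94, neither past the bound, and with the replicate number as a block it did not pass either. The other 3 SUFU probe sets read 1.10 to 1.82 in overlapping groups, and differed by −0.24, −0.02 and −0.02. Averaged over all 4, SUFU differed by −0.36, not past the bound.

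KIF7 and STK36 are the vertebrate counterparts of 2 parts of the Drosophila complex that holds the fly's GLI protein, Costal2 and Fused. KIF7, a kinesin of the cilium tip, read 1.49 and 1.78 in the shDCUN1D1 arrays and 1.54 and 1.36 in the shGFP arrays, below the nonspecific mark throughout. Its groups overlap, and its log2 fold change was 0.19 (standard error 0.18, 90% interval −0.17 to 0.54). STK36, a serine/threonine kinase, has 3 probe sets, all with a positive log2 fold change and none above the mark. The brightest, 226166_PM_x_at, read 1.87 and 1.95 in the shDCUN1D1 arrays and 1.78 and 1.89 in the shGFP arrays, differing by 0.07 (standard error 0.19). Its suffix marks probes that may also bind other transcripts. On 231806_PM_s_at the values were 1.77 and 2.46 after shDCUN1D1, against 1.80 and 1.39 after shGFP, so that shDCUN1D1 replicate 2 alone stood high. That log2 fold change was 0.52 (standard error 0.31), and it passed the bound at 0.87 only without shDCUN1D1 replicate 1.

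DYRK1B, a dual-specificity kinase, gave the second largest difference. Probe set 204954_PM_s_at read 2.53 and 2.45 in the shDCUN1D1 arrays and 3.81 and 3.94 in the shGFP arrays, again with close replicates and a wide gap. The log2 fold change was −1.38 (standard error 0.37, adjusted p = 0.625 from limma), or 2.61-fold lower, with a lower 90% bound of 1.56. It ranged from −1.45 to −1.32 with 1 array left out, and at −1.32, without shGFP replicate 2, it was not past the bound. One of the 2 shDCUN1D1 arrays was above the nonspecific mark. The second DYRK1B probe set, 217270_PM_s_at, did not share this pattern. It read 1.66 and 2.28 in the shDCUN1D1 arrays and 2.36 and 1.73 in the shGFP arrays, differing by −0.08, and averaged over both the gene differed by −0.73, not past the bound.

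**Figure D1:**
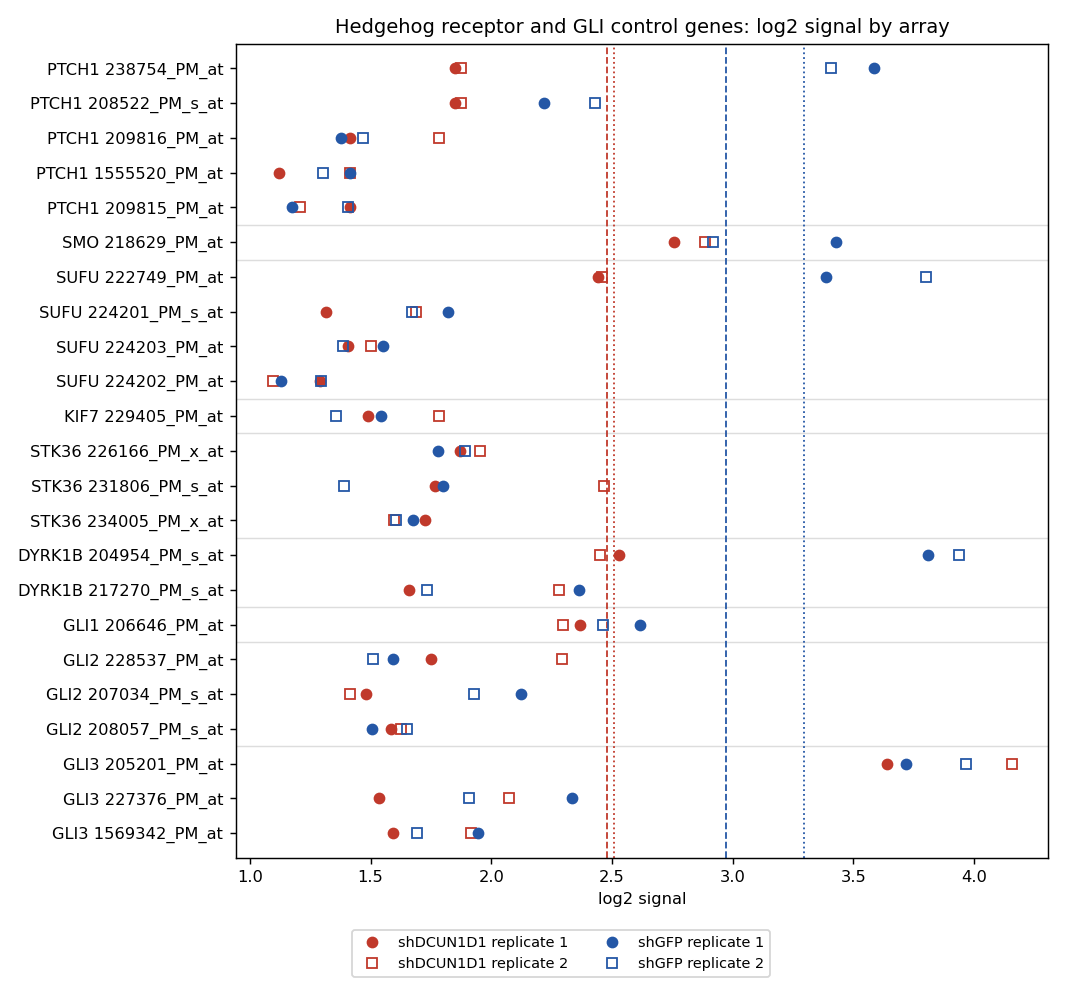
Log2 signal of the 23 probe sets of the 9 genes (rows) in each array, shDCUN1D1 in red and shGFP in blue, with filled circles for replicate 1 and open squares for replicate 2. Vertical lines give the nonspecific mark of each array (dashed for replicate 1, dotted for replicate 2). In the rows of PTCH1 238754_PM_at, SUFU 222749_PM_at and DYRK1B 204954_PM_s_at the red points lie between 1.85 and 2.53 and the blue points between 3.39 and 3.94.

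GLI1 is the activator that responds to the pathway most directly and, with PTCH1, is its usual readout. Its 1 probe set read 2.37 and 2.30 in the shDCUN1D1 arrays, against 2.62 and 2.46 in the shGFP arrays. Both shDCUN1D1 arrays were lower, by less than the error allows to call. Its log2 fold change was −0.21 (standard error 0.26, adjusted p = 0.779 from limma), with a 90% interval from −0.73 to 0.32. No array was above its nonspecific mark, so these arrays do not settle whether GLI1 differed.

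GLI2, the main activator at the start of the response, gave opposite differences on separate probe sets. Probe set 228537_PM_at read 1.75 and 2.29 in the shDCUN1D1 arrays and 1.59 and 1.51 in the shGFP arrays, both shDCUN1D1 arrays being higher. Its log2 fold change was 0.47 (standard error 0.24, adjusted p = 0.625 from limma), or 0.74 and past the bound without shDCUN1D1 replicate 1. Probe set 207034_PM_s_at read 1.48 and 1.41 in the shDCUN1D1 arrays and 2.12 and 1.93 in the shGFP arrays, both shDCUN1D1 arrays being lower. Its log2 fold change was −0.58 (standard error 0.18, adjusted p = 0.625 from limma), with a lower 90% bound of 1.17 that falls just short of 1.2. The third, 208057_PM_s_at, had 0.03. All 3 lay below the nonspecific mark in every array, and averaged over the 3 the gene differed by −0.027.

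GLI3, mainly a repressor, was the member with signal above the mark in all 4 arrays. Probe set 205201_PM_at read 3.64 and 4.15 in the shDCUN1D1 arrays and 3.72 and 3.97 in the shGFP arrays, with each shGFP value inside the shDCUN1D1 range. The log2 fold change was 0.05 (standard error 0.50, adjusted p = 0.978 from limma). Its 90% interval ran from −0.94 to 1.05, so these arrays do not settle a change within those limits. After quantile normalization the value was −0.28. The other 2 GLI3 probe sets read 1.53 to 2.33, with log2 fold changes of −0.32 and −0.06 and overlapping groups.

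**Figure D2:**
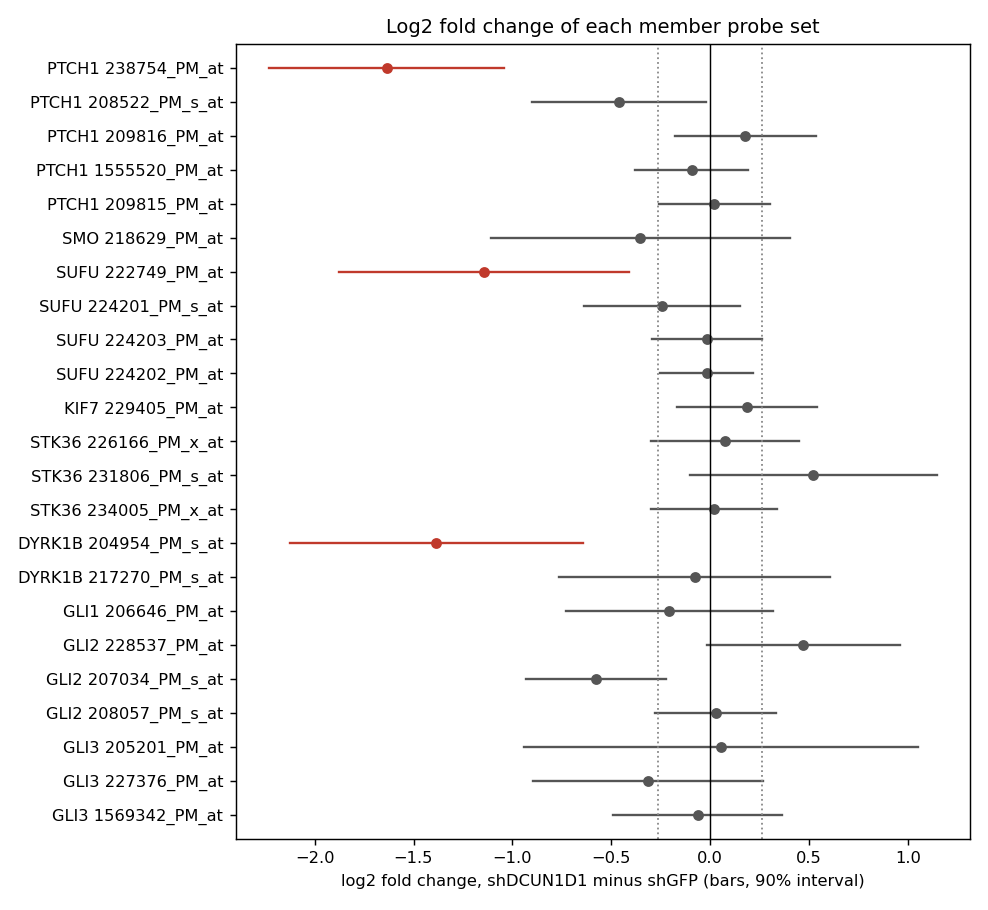
Log2 fold change, shDCUN1D1 minus shGFP, of the 23 probe sets, with bars for the 90% interval from limma's standard error and dotted lines at a fold of 1.2 in each direction. The 3 red probe sets, of PTCH1, SUFU and DYRK1B, have intervals wholly beyond the left dotted line, and the interval of GLI3 205201_PM_at runs from −0.94 to 1.05.

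The 3 probe sets past the bound were above the nonspecific mark in both shGFP arrays. The same shGFP values enter the call, so this is not a separate observation. Of the 23, 4 were above the nonspecific mark in both shGFP arrays, beside 5.27% of all probe sets. These were PTCH1, SUFU, DYRK1B and GLI3, each on its brightest probe set. In both shDCUN1D1 arrays 2 were above it (SMO and GLI3), beside 10.6% of all. In no array were 18 above it, beside 31122 of all 40914. Of 14 member probe sets that were not the brightest of their gene, 0 passed the bound, beside 3.56% of all probe sets. All 14 were above the nonspecific mark in no array. Among all 4405 probe sets with a mean of 2.5 to 3.5 over the 4 arrays, 363 (8.24%) were lower past the bound and 143 higher. This range was set around the 3 member probe sets past the bound, and 4 member probe sets lie in it. The number of called members within it is therefore not a result. The nonspecific controls differed in the same direction: both shDCUN1D1 arrays lay below both shGFP arrays for 20 of 23, and the controls of 20 to 22 G or C bases, which read 2.97 to 4.29 in the shGFP arrays, differed by −0.68 to −0.64. The 3 member differences of −1.63, −1.38 and −1.14 are larger than these. What part the shift of the background has in them was not tested.

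**Figure D3:**
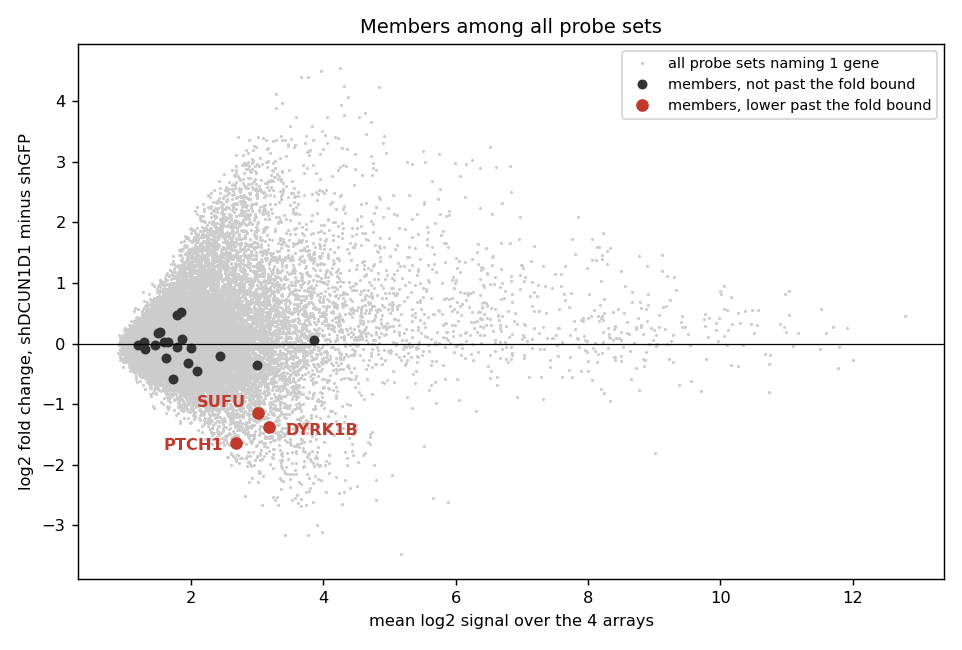
Log2 fold change, shDCUN1D1 minus shGFP, against the mean of the 4 log2 signals, for all 40914 probe sets that name 1 gene (grey), the members lower past the fold bound (red) and the other members (black). The red points lie at means between 2.5 and 3.5, in the lower part of the grey cloud, and most black points lie at means under 2.5.

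Within the members, the pattern over the 4 arrays of PTCH1 238754_PM_at was nearest to that of DYRK1B 204954_PM_s_at, with a root mean square difference of 0.17 log2 units after each was centred on its own mean, followed by SUFU 222749_PM_at with 0.32. The next was GLI2 207034_PM_s_at with 0.53. Over all other genes the nearest probe sets were those of ANKRD2, PARD6A and LINC02591. ANKRD2, which encodes a muscle ankyrin-repeat protein, read 1.73 in both shDCUN1D1 arrays and 3.42 and 3.34 in the shGFP arrays. PARD6A, a cell polarity scaffold, read 2.66 and 2.62 in the shDCUN1D1 arrays and 4.25 and 4.29 in the shGFP arrays. LINC02591, a long noncoding RNA, read 2.44 and 2.29 in the shDCUN1D1 arrays and 4.22 and 4.01 in the shGFP arrays. With 4 arrays many probe sets share such a step between the groups, and the likeness is a description.

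The rest of the pathway was taken as a list of 62 genes written from general knowledge, of which 58 had a probe set naming them alone, 156 probe sets in all. Of these 156, 5 were lower and 5 higher past the bound (3.21% lower, beside 2.38% over all probe sets, and 6.41% in either direction, beside 3.56%). Of the 156, 110 were above the nonspecific mark in no array. The median log2 fold change of the list was −0.03, beside −0.01 over all probe sets. At the start of the pathway, the ligands SHH, IHH and DHH and the genes that release them had 0 of 9 probe sets past the bound and none above the nonspecific mark in both arrays of a group. The co-receptors and ligand-binding proteins, such as CDON, BOC and GAS1, had 0 of 15, and GRK2 and the beta-arrestin measured, which act on SMO, had 0 of 10.

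Of 24 probe sets of cilium genes and the GPR161 route, 2 were lower past the bound (8.33%, beside 2.38% over all probe sets). GPR161, a receptor of the cilium that keeps GLI repressors in production, read 1.07 and 1.08 in the shDCUN1D1 arrays and 1.93 and 1.85 in the shGFP arrays on 206972_PM_s_at. The groups are separate, at a level below the nonspecific mark. Its log2 fold change was −0.81 (standard error 0.13, adjusted p = 0.625 from limma), while the mean over its 6 probe sets had −0.30. FUZ, a planar polarity effector needed for cilium transport, read 2.70 and 2.80 in the shDCUN1D1 arrays and 3.58 and 4.87 in the shGFP arrays. Its log2 fold change was −1.48 (standard error 0.58). It was −0.83 without shGFP replicate 2 and −1.42 without shDCUN1D1 replicate 1, past the bound in neither case.

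Over all probe sets, 1.18% were higher and 2.38% lower past the bound. Among kinases and ubiquitin ligases that act on GLI proteins, 5 of 62 probe sets were higher and 1 lower. ITCH, an E3 ligase of the NEDD4 family, had 3 of the 5. On 209744_PM_x_at it read 4.04 and 3.60 in the shDCUN1D1 arrays and 2.23 and 2.20 in the shGFP arrays, higher by 1.60 (standard error 0.37). The suffix of this probe set marks probes that may also bind other transcripts. The other 2 ITCH probe sets, named to complete the count, had 0.96 and 0.80, the latter above the nonspecific mark in no array. The mean over the 6 ITCH probe sets was 0.50. GSK3B, a kinase that phosphorylates GLI proteins ahead of their processing, had 1.42 (standard error 0.50) on 1 of its 5 probe sets, with 3.27 and 3.64 in the shDCUN1D1 arrays and 2.63 and 1.44 in the shGFP arrays. That value was 0.82 without shGFP replicate 2. Its brightest probe set had 0.68 and was not past the bound, and the mean over the 5 was 0.49. PRKACB, a catalytic subunit of protein kinase A, had 1.02 (standard error 0.23) on 1 of its 3 probe sets, whose mean was 0.33, with 2.59 and 2.26 in the shDCUN1D1 arrays and 1.56 and 1.26 in the shGFP arrays. Without shGFP replicate 2 none of these 5 probe sets was past the bound, at 0.50 to 1.59. No shGFP array was above its nonspecific mark on any of the 5, so these folds too are taken against background. CUL1, the cullin of the ligase that marks GLI3 for processing, differed by −1.24 on 1 of its 2 probe sets, or −1.07 and not past the bound without shGFP replicate 2, and by 0.32 on the other. The first was above the nonspecific mark in no array.

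Among 42 probe sets of GLI target genes, 2 were lower past the bound and 0 higher. Over all probe sets, 2.38% were lower and 1.18% higher. BCL2, an inhibitor of apoptosis, read 2.06 and 1.90 in the shDCUN1D1 arrays and 4.13 and 5.15 in the shGFP arrays on its brightest probe set. The log2 fold change was −2.66 (standard error 0.50), or 6.32-fold lower, with both shDCUN1D1 arrays below their nonspecific mark, so that this fold too is taken against background. It was past the bound with any 1 array left out. Its other 3 probe sets differed by −0.72, −0.79 and 0.24, and none passed the bound. The first of these, 207004_PM_at, was the only BCL2 probe set above the mark in every array. It read 2.65 and 3.12 in the shDCUN1D1 arrays and 3.39 and 3.83 in the shGFP arrays (standard error of the difference 0.43). MYCN, a transcription factor of the MYC family, read 1.78 and 1.95 in the shDCUN1D1 arrays and 2.90 and 2.52 in the shGFP arrays, a difference of −0.85 (standard error 0.27), with a mean of −0.39 over its 10 probe sets. This probe set was above the nonspecific mark in no array. It was −0.76 without shDCUN1D1 replicate 1 and −0.66 without shGFP replicate 1, past the bound in neither case. HHIP, a ligand-binding antagonist that responds to the pathway as PTCH1 does, read 0.88 to 1.31 over its 3 probe sets, with log2 fold changes of −0.15 to 0.04. All 3 were above the nonspecific mark in no array, so a change of HHIP is not settled.

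**Figure D4:**
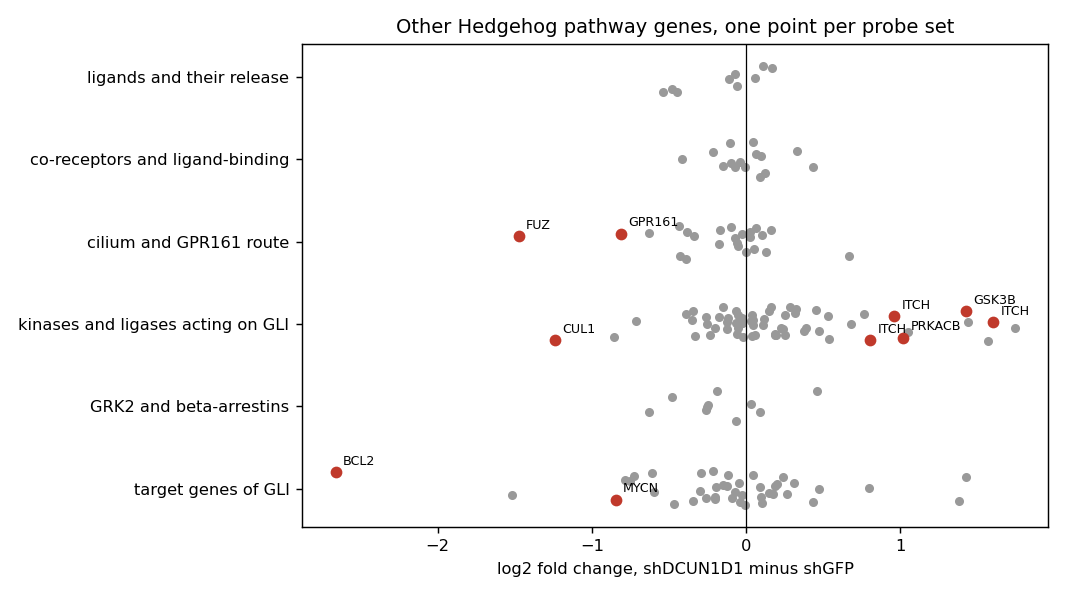
Log2 fold change, shDCUN1D1 minus shGFP, of each probe set of the other Hedgehog pathway genes, by role (rows; vertical scatter is for display). Red points are past the fold bound and named, with BCL2 at −2.66 and ITCH at 1.60 as the extremes among them, and grey points are not. HHIP and GAS1 stand in 2 rows.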

How the data were processed

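Log2 signals per probe set, as the authors deposited them, were used for 2 shDCUN1D1 and 2 shGFP Affymetrix arrays of human transcripts. Affymetrix Expression Console is named in the notes of the submitters and dChip with a smoothing spline in the paper's methods, and the sources do not settle which of them made the values. The scale was read as log2 from its range.

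Of 54715 probe sets, 40914 name 1 gene in the platform annotation. Those naming several genes (864) or none (12835) and 102 controls were left out. Of the 40914, 40858 matched RefSeq by gene ID and 0 symbols changed. No further scaling was applied. limma (version 3.58.1, R 4.3.3) was fitted over all 40914 with a variance trend. The fit was also run on simulated data with differences larger than any of the members, so calls of the members' size were not tested by it. An array has no read depth, so the number of arrays and the signal over background limit the precision.

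The members, the pathway list and the rules were chosen with earlier results of these data known. Named were each member's brightest probe set and those past the fold bound, up to 3 list probe sets per role and direction, BCL2, HHIP, and the 3 nearest patterns to PTCH1. GLI2 207034_PM_s_at, PTCH1 208522_PM_s_at, STK36 231806_PM_s_at and DYRK1B 217270_PM_s_at were singled out after their values were seen. The signal range of 2.5 to 3.5 was set around the 3 members past the bound. The probe sets of 1 gene share its transcripts and are not replicates. Alternatives were quantile normalization, median centring, filters on dim probe sets, 1 value per gene, all transcript probe sets, other variance models, a replicate block, leaving out each array and other thresholds.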

Additional observations from a re-analysis of the deposited data

How the results depend on the processing

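PTCH1 238754_PM_at, SUFU 222749_PM_at and DYRK1B 204954_PM_s_at were lower under every alternative run, and no alternative brought a member under an adjusted p of 0.05. A threshold of 0.1 was tried with all arrays and gave 0 members, while PTCH1 had a limma adjusted p of 0.0601 without shDCUN1D1 replicate 2, in a range of 0.0601 to 0.957 over its alternatives. Of all member probe sets, 3 were past the bound, but 0 as the mean of the probe sets of a gene and 9 by a plain fold change over 1.2, and 1 to 4 with 1 array left out. The 1, without shGFP replicate 2, was PTCH1, and the 4, without shDCUN1D1 replicate 1, were PTCH1 and DYRK1B lower and GLI2 228537_PM_at and STK36 231806_PM_s_at higher. Of the pathway list, 10 were past the bound, against 4 with the filter above the nonspecific control, 4 with the brightest probe set per gene, 2 as gene means, 3 at a bound of 1.5, 63 by plain fold change and 3 to 19 with 1 array left out. Of all probe sets, 1455 were past it, against 779 with that filter, 584 as gene means, 415 at a bound of 1.5, 16226 by plain fold change and 550 to 4878 with 1 array left out. By adjusted p the count of 0 became 1 with unmoderated standard errors and 0 to 2602 with 1 array left out, the 2602 without shDCUN1D1 replicate 2, when that group's lone array is assumed to vary like the shGFP pair. GLI3 205201_PM_at was 0.05, but −0.28 after quantile normalization and −0.11 as the gene mean, and lay between −0.20 and 0.31 with 1 array left out. GLI2 228537_PM_at was 0.47, and −0.027 as the gene mean. Except for leaving out arrays and taking gene means, which change what is averaged, the cause was not tested.

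With the replicate number as a block, 1174 of all probe sets, 2 of the members (PTCH1 and DYRK1B, not SUFU) and 6 of the pathway list were past the bound. Same-numbered arrays did not deviate together (correlation of −0.04 over 40914 probe sets), so the numbers were not taken as pairs. Of 23 member probe sets, 18 lay below the nonspecific control in every array, as did 31122 of all 40914. On those 18 probe sets the signal was not told apart from background by this mark, and a change is not settled. Some of them belong to PTCH1, SUFU, DYRK1B and GLI3, which were above it in both shGFP arrays on their brightest probe set.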
